A study of Mus musculus with 16 samples.

Results

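The variable (TRBV) and joining (TRBJ) segments of the TCRβ chain were counted in IL-4eGFP+CD4+ cells from lung and mesenteric lymph node (MLN). Every TRBV and TRBJ segment in a productive TCRβ contig was a member, provided that the cell also had a productive TCRα contig. This gave 34 segments, 22 TRBV and 12 TRBJ, of 168 V and J segments of both chains. Lung 2, MLN 1 and MLN 2 each held 34 of them and lung 1 held 32. A clone was defined by an identical set of V segments, J segments and nucleotide CDR3 over all productive chains of a cell, and each segment was counted once per clone and also once per cell. The CDR3 is the stretch of the chain that spans the V to J junction. The mice were 4get animals (labelled 4get/C57BL/6), which report transcription of the IL-4 locus by eGFP, and all had been infected with the nematode Nippostrongylus brasiliensis (Nb) 10 days before harvest. Lung and MLN came from the same 2 mice, aged 13 weeks, with 1 TCR library for each organ and mouse (lung 1, lung 2, MLN 1 and MLN 2). A separate run held mediastinal (medLN) and mesenteric node cells of 2 other 4get mice, aged 10 weeks and also 10 days after infection, sorted as IL-4eGFP+CD4+ or IL-4eGFP-CD4+ and marked by hashtags, and only its gene expression was used. No uninfected mouse was analysed here, perfused lung still contains some intravascular cells, and the reporter also marks NKT cells.

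The β chain is assembled in the thymus by joining a V, a D and a J segment, and bases are trimmed and added at each joint. The locus holds many V segments ahead of a pair of D, J and C clusters, except TRBV31, which lies behind them in the opposite orientation. Segment usage is uneven before any antigen is met, so a frequent segment is not in itself a sign of selection. Invariant NKT cells pair an α chain of TRAV11 and TRAJ18 with a few V segments, mainly TRBV13-2, TRBV29 and TRBV1 in the mouse.

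In the annotation of the mm10 genome (GRCm38, GENCODE vM21) the locus lies on chromosome 6. All 22 TRBV genes annotated as functional were found, and 12 of 13 functional TRBJ genes, TRBJ1-7 being the exception. None of 13 TRBV pseudogenes and no TRBJ pseudogene appeared in a productive contig. The germline ends below, from the codon of the conserved cysteine (capitals) to the last annotated coding base, show what each V gene can contribute to a CDR3. They are given for 5 segments on which the results below turn.
TRBV1: TGCagtgcaga
TRBV5: TGTgccagcagccaaga
TRBV13-2: TGTgccagcggtgatg
TRBV31: TGTgcctggagtctca
TRBV4: TGTgccagcagctaaga
These are chr6:40891875-40891885, chr6:41062787-41062803, chr6:41121817-41121832, chr6:41557691-41557706 (minus strand) and chr6:41059870-41059886 (plus strand, as are the others), each the end of the last coding exon. TRBV1 offers 11 bases and is the shortest, whereas the other 21 segments offer 14 to 21. Of all 22 V segments, only TRBV4 has a stop codon (taa) in the reading frame of this end.

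A total of 4714 cells carried both chains and formed 885 and 375 clones in lung 1 and lung 2, and 2080 and 713 in MLN 1 and MLN 2. Within a mouse, 105 clones of mouse 1 and 21 of mouse 2 occurred in both organs. TCRβ contigs had fewer UMIs in the lung, with a median of 7 in each lung library against 14 in MLN 1 and 13 in MLN 2. Median gene expression UMIs per barcode were higher in lung (6139 and 5124.5) than in MLN (4847 and 4790). Of the barcodes that passed the filters, 67.4% and 66.7% in lung 1 and lung 2 had both chains, against 87.6% and 83.9% in MLN 1 and MLN 2. The effect of this loss on the comparison of organs was not tested. More than 1 productive TCRβ contig was found in 3.23% and 1.92% of lung cells and in 7.27% and 8.09% of MLN cells, so shares of segments add up to more in MLN. The libraries had 13 cell barcodes in common, and in 0 of them did the clones match. Cd3e was detected in 98.1% to 99.9% of the cells of a library and Cd4 in 73.3% to 78.4%, while Ms4a1 (B cells) was at 0 and Cd79a reached at most 0.277%. Of the CD8 genes, Cd8a reached at most 0.0406% but Cd8b1 was found in 3.45% to 6.28%. Of the myeloid genes, Lyz2 was found in 0% of lung and up to 2.52% of MLN cells, Cd68 in 1.20% to 1.86% and Itgam in at most 0.240%. Their part in the results was not tested. The V segment read from gene expression was that of the contig in 98.8% of 4364 cells with a call in both readouts, with TRBV20 lowest at 96.5%. Cells with more than 1 productive TCRβ contig were left out of this check.

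Usage of V segments was uneven, and the order of the frequent ones varied between the libraries. TRBV13-2 had the highest mean, 13.7% of clones, taking 11.9% and 13.9% of clones in lung 1 and lung 2, and 14.0% and 14.9% in MLN 1 and MLN 2. Exact Clopper-Pearson 95% intervals of these shares, which like all intervals here cover counting error only, run from 9.81% to 14.2% in lung 1 and from 12.3% to 17.7% in MLN 2 and overlap. TRBV31 followed with a mean of 11.1%, TRBV5 with 10.7%, TRBV1 with 8.63%, TRBV3 with 8.47% and TRBV13-3 with 7.87%. These 6 segments were carried by 58.5% ± 1.73 of lung clones and 59.1% ± 2.72 of MLN clones (SD, n = 2 libraries). The 3 members of the TRBV13 family together made up 27.1% ± 3.67 in lung and 28.5% ± 0.395 in MLN.

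TRBV1 took 8.81%, 9.07%, 7.79% and 8.84% of clones in lung 1, lung 2, MLN 1 and MLN 2. These shares lay close together, unlike those of TRBV13-3, which took 10.96% and 8.37% in lung 1 and MLN 1 but 6.13% and 6.03% in lung 2 and MLN 2. TRBV13-3 was thus higher in both libraries of mouse 1 than in both of mouse 2. Of 32 TCRβ segments tested, 11 separated the libraries of the mice without overlap (8 higher and 3 lower in mouse 1), against 32% of all 150 segments of both chains. The opposite end of the scale held TRBV21 (3 clones counted over the 4 libraries, 0 in lung 1, which allows a share of up to 0.339%), TRBV30 (8 clones, also 0 in lung 1), TRBV12-1 with a mean of 0.603% and TRBV17 with 0.637%. The TRBV12 family, TRBV12-1 and TRBV12-2, reached 1.76% ± 0.227 in lung and 1.21% ± 0.527 in MLN (SD, n = 2).

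**Figure D1:**
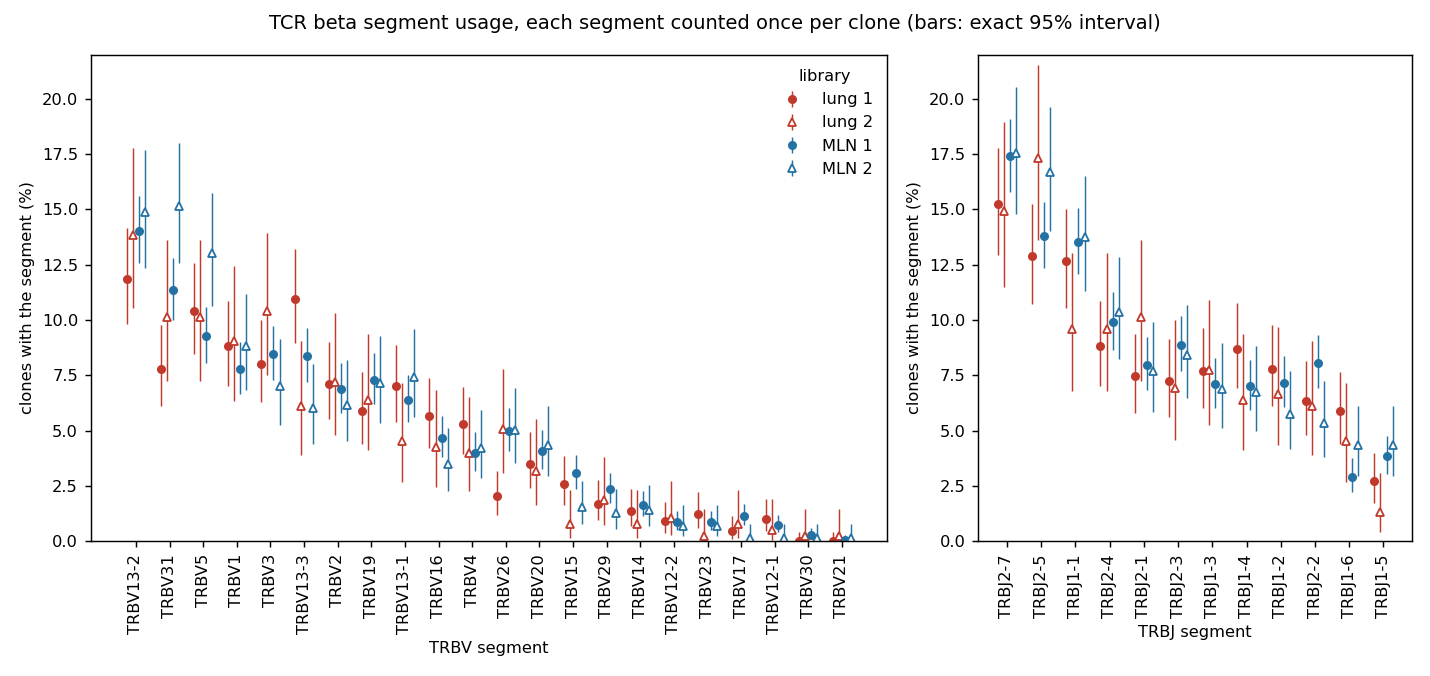
Percent of clones that carry each TRBV (left) and TRBJ (right) segment in lung 1, lung 2, MLN 1 and MLN 2, ordered by the mean, with exact 95% intervals as bars. TRBV13-2 and TRBJ2-7 have the highest means (13.7% and 16.3%), and for TRBV31 both lung points lie below both MLN points.

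The J segments split into the TRBJ1 and TRBJ2 clusters. TRBJ2 was carried by 61.2% ± 5.42 of lung and 63.7% ± 0.0147 of MLN clones, and TRBJ1 by 40.7% ± 6.24 and 40.7% ± 0.167 (SD, n = 2). Clones with a chain of each kind count in both. TRBJ2-7 had the highest mean, 16.3%, with 15.3%, 14.9%, 17.4% and 17.5% in lung 1, lung 2, MLN 1 and MLN 2. It was followed by TRBJ2-5 with a mean of 15.2%, TRBJ1-1 with 12.4% and TRBJ2-4 with 9.67%. TRBJ1-5 (3.06%) and TRBJ1-6 (4.42%) were the least used. Pearson's r of the shares between pairs of libraries lay between 0.871 and 0.968 over the 22 TRBV and between 0.868 and 0.956 over the 12 TRBJ. This is a description over segments, which are not independent, and libraries of a mouse also share clones.

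The D and C calls of the contigs followed the order of the clusters in part. TRBD2, which lies behind the TRBJ1 cluster, was called in 105 of 1997 TRBJ1 contigs (5.26%) and in 1295 of 3018 TRBJ2 contigs (42.9%), with 4.41% to 6.58% and 40.2% to 44.1% in the single libraries. All 5015 productive TCRβ contigs were called TRBC1, so the call does not separate the clusters. In gene expression, Trbc1 made up 23.5% to 26.6% of Trbc1 and Trbc2 UMIs in cells with a TRBJ1 chain and 12.1% to 14.5% in cells with a TRBJ2 chain. All 4 libraries therefore showed a higher Trbc1 share with TRBJ1, yet most constant region UMIs were assigned to Trbc2 even there.

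Of 264 possible pairs of V and J, 239 were found, and 183 of them in both mice. The pair seen most often in mouse 1 was TRBV13-2 with TRBJ2-7, in 67 clones of mouse 1 and 30 of mouse 2, against 64.1 and 25.6 if each segment were drawn independently at its own share. TRBV1 with TRBJ1-1 was found in 50 and 15 clones, against 30.1 and 11.8. A single nucleotide chain of this pair was carried by 9 clones of mouse 1, which count separately because their other chains differed. Its clones are therefore not all independent. TRBV13-2 with TRBJ1-1 was found in 49 clones of mouse 1, near its product of 50.4, but in 5 of mouse 2, below its product of 19.3. The latter pair therefore stood lower in mouse 2 than in mouse 1. These pairs were chosen after their values were seen, and no test was made.

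In each of the 4 libraries, TRBV1 had the shortest mean CDR3 among the V segments with 10 or more chains there. Over all chains the length was 41.2 ± 0.176 nt (SD of 4 library means), within a range of 18 to 60 nt. TRBV1 averaged 36.5, 36.3, 35.9 and 35.5 nt in lung 1, lung 2, MLN 1 and MLN 2, a mean of 36.05 ± 0.436 nt, below the lowest library mean of any other V segment with 10 or more chains, 38.7 nt. TRBV5, for which 6 more germline bases are annotated, had the longest CDR3 of the frequent segments, 44.0 ± 0.376 nt. Bases that match neither the V nor the J end, which include those of the D segment, averaged 8.86 ± 0.237 nt in TRBV1 and 8.72 ± 0.533 nt in TRBV3. The other frequent segments had more, from 9.47 ± 0.321 nt in TRBV5 to 10.2 ± 0.157 nt in TRBV31, with 10.1 ± 0.313 nt in TRBV13-2. TRBV3 has the longest annotated end, 21 bases, and its count depends on that annotation. Bases matched to the V end were fewest in TRBV1, 8.73 ± 0.137 nt against 13.8 ± 0.313 nt in TRBV13-2 (SD, n = 4). Among J segments the length ranged from 39.6 nt with TRBJ1-1 to 43.3 nt with TRBJ2-2.

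**Figure D2:**
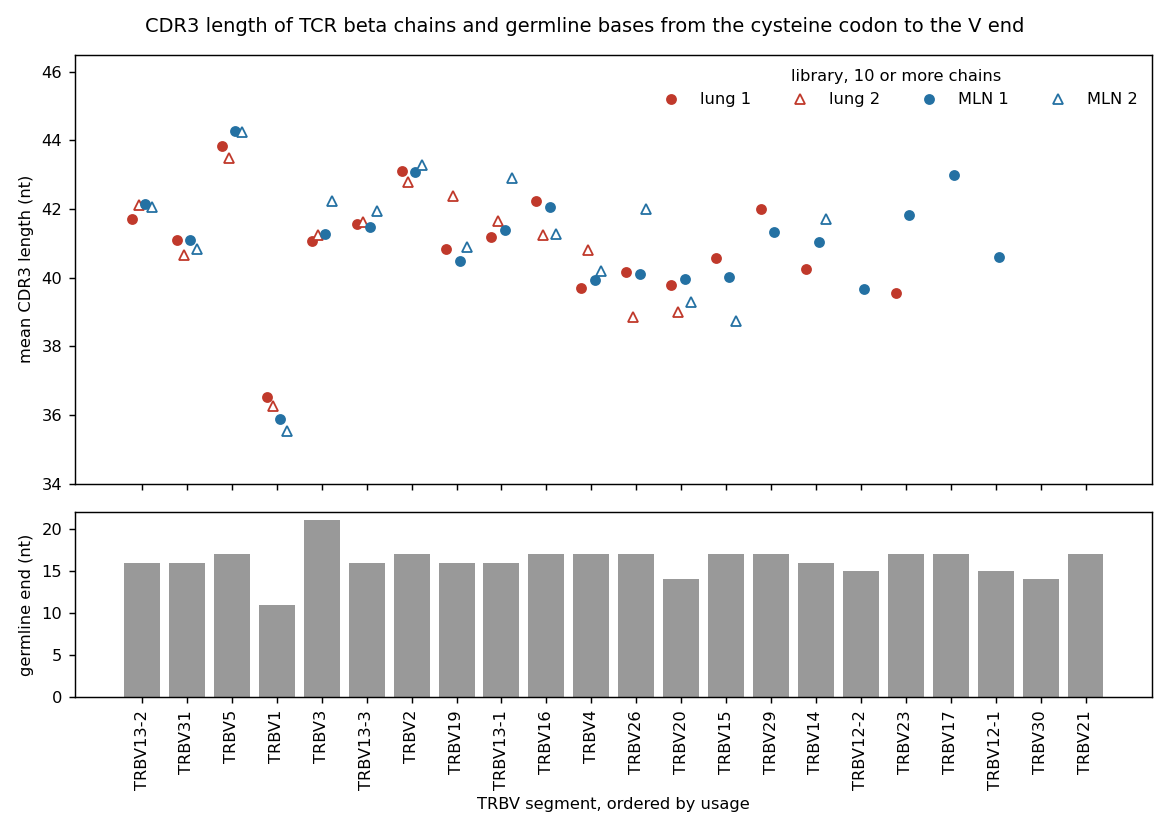
Mean CDR3 length in nt of each TRBV segment in the 4 libraries, shown where a library held 10 or more chains, above the number of germline bases from the cysteine codon to the annotated V end. TRBV1, at 35.5 to 36.5 nt and with 11 germline bases, lies below all other segments.

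Chains of the largest clones are printed here, the 3 largest clones of lung first and those of MLN after them. Bases matched to the V or J germline are in lower case and all others in capitals. The D segment was not matched, so capitals include bases of germline D.
Lung, mouse 1, TRBV5 TRBJ1-6: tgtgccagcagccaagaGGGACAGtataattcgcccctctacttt
Lung, mouse 2, TRBV31 TRBJ2-3: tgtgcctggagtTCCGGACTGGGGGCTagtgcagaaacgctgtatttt
Lung, mouse 1, TRBV13-2 TRBJ1-2: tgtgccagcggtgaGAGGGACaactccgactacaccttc
MLN, mouse 1, TRBV13-1 TRBJ2-5: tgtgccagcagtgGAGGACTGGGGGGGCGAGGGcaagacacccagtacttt
MLN, mouse 1, TRBV13-1 TRBJ1-1: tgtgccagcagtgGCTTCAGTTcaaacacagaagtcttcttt
MLN, mouse 1, TRBV1 TRBJ1-4: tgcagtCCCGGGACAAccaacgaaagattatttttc
TRBV13-1 was carried by 2 of the MLN clones, and the other 4 clones each had a V segment of their own. The lung clones had 11, 9 and 6 cells and the MLN clones 15, 6 and 8, of which 10, 6 and 6 were in MLN, and a further clone tied with the last of these. The clone of mouse 2 had 7 of its 9 cells in lung, and the TRBV13-1 TRBJ2-5 clone had 5 of its 15 in lung. The other lung clones were seen in lung alone.

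Lung was compared with MLN to ask whether the organs hold cells with different segments. TRBV21 and TRBV30 were too rare to be tested. Of the other 32 TCRβ segments, 14 did not overlap between the 2 lung and the 2 MLN libraries, 4 higher and 10 lower in lung, while 46.7% of all 150 segments did not overlap. By edgeR's quasi-likelihood test with Benjamini-Hochberg adjustment over those 150 segments, 0 of 32 passed (0% of all segments), 4 had an unadjusted p under 0.05 (6.67% of all segments), and DESeq2 passed 0 with 0 at an unadjusted p under 0.05. Clones found in both organs of a mouse count in both, and cells of a mouse are not independent, so n is 2 per organ. The labels do not say more about how the libraries of an organ were replicated than that they come from separate mice.

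TRBV31 showed the smallest p. The segment was carried by 7.80% and 10.1% of clones in lung 1 and lung 2, and by 11.3% and 15.1% in MLN 1 and MLN 2. Both lung libraries lay below both MLN libraries, and within each mouse lung lay below MLN. The log2 fold change of lung against MLN was -0.57 ± 0.18 (SE), with an adjusted p of 0.431 by edgeR's quasi-likelihood test. With the mouse as a block it was -0.55 with an adjusted p of 0.0237, and TRBV31 was then the only TCRβ segment called (2.67% of all segments were called). Without lung 2 TRBV31 and TRBV26 were called by edgeR's quasi-likelihood test, with adjusted p of 0.0401 and 0.0434, but lung 1 was then the only lung library and was assumed to vary like the MLN libraries. Cells with more than 1 productive TCRβ contig were more frequent in MLN, and without cells with extra chains the log2 fold change of TRBV31 was -0.38 (adjusted p = 0.716). Counted once per cell, TRBV31 took 7.02%, 11.3%, 11.7% and 14.9% in lung 1, lung 2, MLN 1 and MLN 2.

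TRBV26 took 2.03% of clones in lung 1 but 5.07%, 5.00% and 5.05% in lung 2, MLN 1 and MLN 2, and its log2 fold change of -0.74 ± 0.33 was 0.015 without lung 1. TRBJ1-5 was found in 2.71% and 1.33% of lung clones and in 3.85% and 4.35% of MLN clones, with no overlap and a log2 fold change of -0.82 ± 0.33, which was -1.58 without lung 1. TRBJ1-6 went the other way, with 5.88% and 4.53% in lung and 2.93% and 4.35% in MLN, again without overlap, and 0.68 ± 0.27. Neither passed the test (edgeR, adjusted p = 0.508 for each). TRBV12-1 (0.63 ± 0.64, 11 lung clones and 16 MLN clones) and TRBV17 (-0.59 ± 0.74, 7 and 25 clones) overlapped between the organs. Their direction turned without lung 1 (TRBV12-1, -0.039) and without MLN 1 (TRBV17, 2.16).

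Clones present in both organs of a mouse (105 of 2860 in mouse 1 and 21 of 1067 in mouse 2) used the frequent segments as well. TRBV31 was carried by 13 and 5 of them, which were 4.45% and 3.55% of all TRBV31 clones of mouse 1 and mouse 2. For TRBV1 the numbers were 12 and 2 clones (5.26% and 2.11%), for TRBV13-2 15 and 3 (3.93% and 1.94%) and for TRBV5 8 and 1 (2.89% and 0.769%). In each of these segments the share was higher in mouse 1, from which more cells were read, and no test was made.

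**Figure D3:**
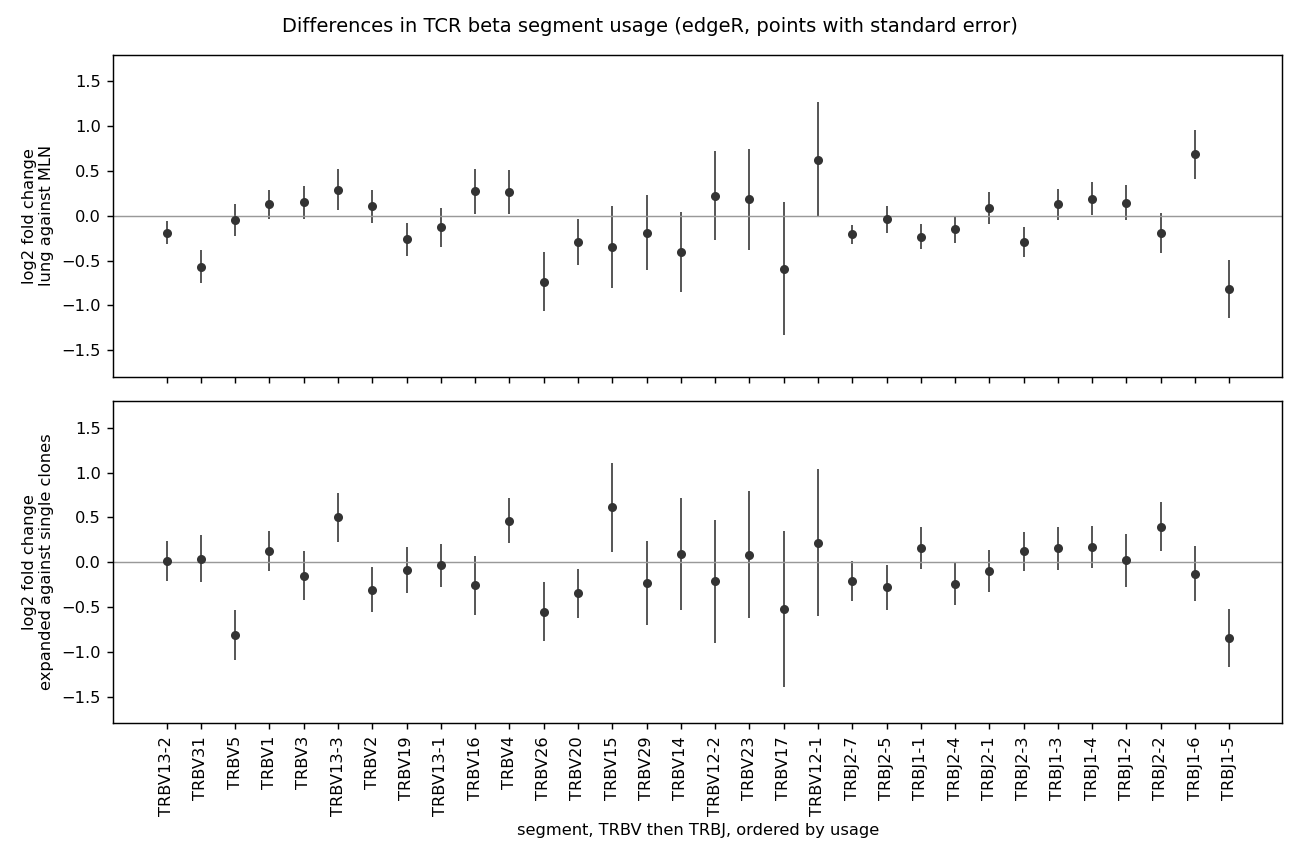
Log2 fold change of each tested TCRβ segment between lung and MLN (top) and between expanded and single clones (bottom). Bars are approximate standard errors derived from the F statistic of edgeR's quasi-likelihood test. No segment passed an adjusted p of 0.05 in either panel, and the standard errors have a median of 0.21 and 0.27.

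Expanded clones (2 or more cells in a mouse) were compared with single clones to ask whether some segments are found more often among them. Only part of each organ was sampled, so a single clone may have had further cells that were not read. There were 454 expanded and 2406 single clones in mouse 1, and 83 and 984 in mouse 2. Among 32 TCRβ segments 3 were higher and 5 lower in the expanded clones of both mice than in the single clones of both, against 36.7% of all segments without overlap. Of the 32, 0 were called by edgeR's quasi-likelihood test with Benjamini-Hochberg adjustment (0% of all segments), with 2 at an unadjusted p under 0.05 (4% of all segments), and DESeq2 called 0 with 1 at an unadjusted p under 0.05. With the mouse as a block 0 TCRβ segments were called, and 0.667% of all segments. The median standard error of a log2 fold change was 0.27, and differences of this size could not be told from 0.

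TRBV5 was carried by 27 of 454 expanded clones of mouse 1 (5.95%) and 7 of 83 of mouse 2 (8.43%), but by 10.4% and 12.5% of single clones. It was lower among expanded clones in both mice and the groups did not overlap. The log2 fold change was -0.81 ± 0.27 with an adjusted p of 0.761 by edgeR's quasi-likelihood test. Among clones with an MLN cell, an alternative setting, it was -0.99 with an adjusted p of 0.0441 by the same test. The change by expansion was higher in lung than in MLN by 0.49 ± 0.46. This difference between the organs did not pass (edgeR, interaction of class and organ, unadjusted p = 0.337). The share of TRBV5 clones that were expanded was 17.4%, 10.5%, 9.84% and 4.30% in lung 1, lung 2, MLN 1 and MLN 2, each below the share among all clones, which was 23.8%, 12.5%, 16.7% and 7.99%.

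TRBV1, which the study names, was carried by 8.81% and 9.64% of expanded clones of mouse 1 and mouse 2 and by 7.81% and 8.84% of single clones. The expanded share was higher within each mouse, but the groups overlapped (8.81% and 8.84%), and the log2 fold change of 0.13 ± 0.22 did not pass (edgeR, adjusted p = 0.972). With the 95% interval of 6.37% to 11.8% for the expanded clones of mouse 1, a difference of this size was not detectable at this number of clones. TRBJ1-5 was found in 1.98% and 2.41% of expanded and in 3.82% and 3.46% of single clones, lower in both mice, at -0.85 ± 0.33 (edgeR, adjusted p = 0.907), with 11 expanded clones behind it. TRBV15 (0.61 ± 0.50), TRBV26 (-0.55 ± 0.33) and TRBJ2-2 (0.40 ± 0.27) overlapped between expanded and single clones. TRBV15 and TRBV26 turned in direction without mouse 1 (-0.13 and 0.27).

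Whether the effect of expansion differs between lung and MLN was asked by the interaction of class and organ. Of 32 TCRβ segments, 0 passed edgeR's quasi-likelihood test with Benjamini-Hochberg adjustment (0% of all segments), with 2 at an unadjusted p under 0.05 (2% of all segments), and DESeq2 was not run on it. One was TRBJ1-1, which was carried by 15.2% ± 2.89 of expanded and 11.9% ± 2.59 of single clones over the 4 libraries. Its log2 fold change by expansion was higher in lung than in MLN by 0.72 ± 0.35, with an adjusted p of 1.00. The other was TRBV23, with 5 expanded clones over the libraries and none in some, for which no fold is given. TRBV12-1 (-0.65 ± 1.49), TRBV26 (-0.60 ± 0.80) and TRBJ1-5 (0.63 ± 0.87) had differences smaller than or near their standard errors.

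Clones with an invariant α chain served as a set in which the β segments are known from other work. There were 48 of them in mouse 1 and 28 in mouse 2, each of 1 cell, with 3 and 8 cells in lung 1 and lung 2, and 45 and 20 in MLN 1 and MLN 2. Zbtb16, which encodes the transcription factor PLZF of NKT cells, was detected in 67.1% of the invariant cells and in 0.388% of the other cells, at a median of 4894 and 5432 UMIs per cell. TRBV13-2 was carried by 17 of 48 invariant clones in mouse 1 (35.4%) and 16 of 28 in mouse 2 (57.1%), against 12.98% and 13.38% of the other clones. It was higher in both mice without overlap. Its log2 fold change was 1.73 ± 0.26 with an adjusted p of 0.0479 by edgeR's quasi-likelihood test with Benjamini-Hochberg adjustment. This adjusted p depends on TRAV11 and TRAJ18, which define the invariant clones and were among the segments adjusted over. With both left out, TRBV13-2 was not called.

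TRBV13-2 was the only TCRβ segment called of 32. Of all segments 2% were called, the others being TRAV11 and TRAJ18, which define these clones, so this share is no background. Of the 32, 8 had an unadjusted p under 0.05 (20.7% of all segments), and 5 were higher and 15 lower without overlap. Of all segments 89.3% did not overlap, but most TCRα segments are near 0 in these clones by definition, so nothing is read from the shares over all segments here. DESeq2 called TRBV29 in its place (adjusted p = 0.0167), with 7 at an unadjusted p under 0.05. The call of TRBV13-2 was lost under 9 alternatives (adjusted p from 0.0748 to 0.999) at log2 fold changes of 1.64 to 1.75.

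TRBV29 was carried by 18 of 48 invariant clones of mouse 1 (37.5%) but by 1 of 28 of mouse 2 (3.57%), against 1.53% and 1.44% of the other clones. Mouse 1 stood far above mouse 2, yet both lay above the other clones. The log2 fold change was 4.01 ± 0.76 with an adjusted p of 0.0788 by edgeR's quasi-likelihood test, and 1.31 without mouse 1. In MLN 1 the 17 invariant TRBV29 clones held 17 different CDR3 sequences and 10 TRBJ segments, so they were not copies of 1 chain. TRBV13-3 was carried by 4 and 5 invariant clones (8.33% and 17.9%, against 9.10% and 5.87%), with a log2 fold change of 0.59 ± 0.68. TRBV1 was found in 4 and 3 (0.15 ± 0.34) and TRBV13-1 in 2 and 2 (-0.31 ± 0.39), each overlapping with the other clones.

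Of the 22 TRBV, 11 were carried by 0 of the 76 invariant clones, which allows a share of up to 3.95%. By that share TRBV3, found in 8.49% of the other clones, was at least 2.15-fold lower and TRBV19 (7.09%) at least 1.796-fold, for counting error only. By the exact 95% upper limit of 4.74% both folds would be smaller, though both segments stood above that limit. TRBV26 stood at 4.54% of the other clones, below the exact 95% upper limit of 4.74% for 0 of 76. TRBV31 and TRBV5, the segments next to TRBV13-2 in the general ranking, were carried by 1 invariant clone each. For TRBJ segments the shares lay nearer to those of the other clones. TRBJ2-2 was found in 3 of 76 (-0.79 ± 0.82) and TRBJ1-6 in 2 of 76 (-0.62 ± 0.60), the largest differences among TRBJ.

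**Figure D4:**
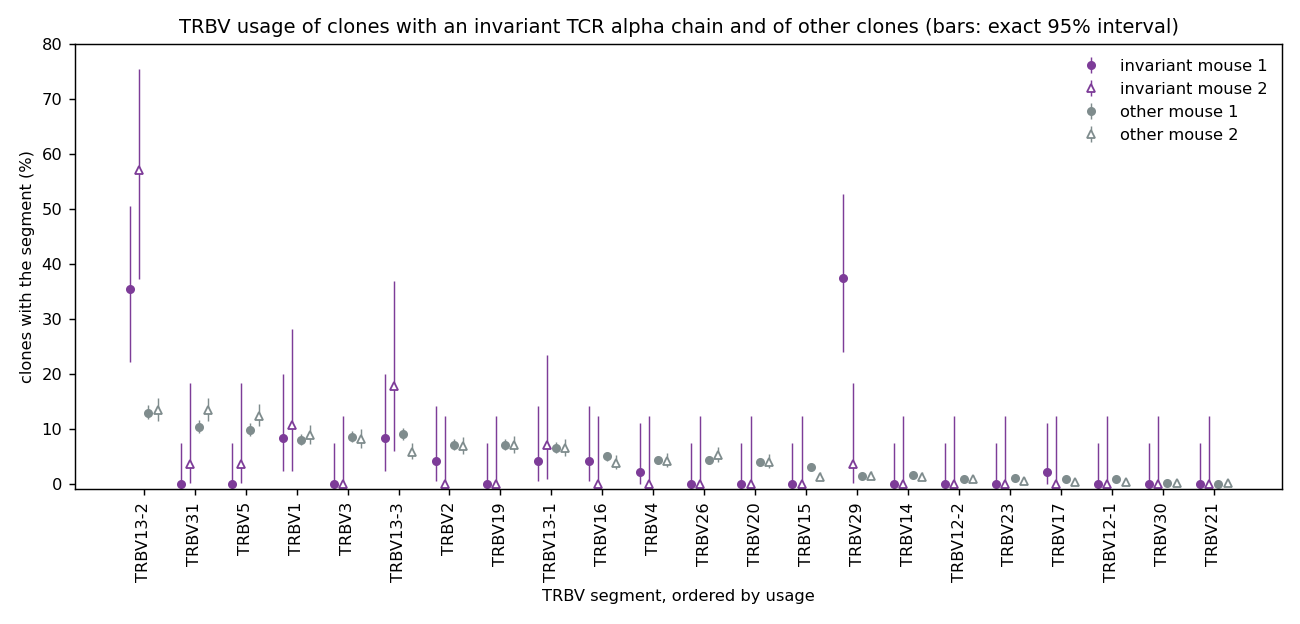
Percent of clones that carry each TRBV segment among clones with the TRAV11 and TRAJ18 chain (purple, 48 in mouse 1 and 28 in mouse 2) and among other clones (grey), with exact 95% intervals as bars. TRBV13-2 is higher in both mice, whereas TRBV29 stands at 37.5% in mouse 1 and 3.57% in mouse 2.

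The study reports that expanded TCRα CDR3 motifs, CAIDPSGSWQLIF and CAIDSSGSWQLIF among them, occurred preferentially with Trbv1. TCRα chains of the clones described here encode both motifs, so the pairing was already known. TRBV1 was looked at together with its α chains after its values had been seen, so the following is a description without a test. Of 14 clones with TRAV13D-2 and TRAJ22, 11 carried TRBV1 (78.6%, exact 95% interval 49.2% to 95.3%), while TRBV1 was found in 8.23% of all clones. They came from both mice, 9 from mouse 1 and 2 from mouse 2, and comprised 28 cells, with 3 expanded clones. Of the 11 clones 9 had a chain of 36 nt (7 distinct chains), 5 used TRBJ1-1 and 4 TRBJ1-4. In mouse 1 a clone of 6 cells and a clone of 1 cell shared both their TRBV1 chain and their TRAV13D-2 chain. They count as separate clones because a further chain differed. The clones are therefore not all independent, as the interval assumes. The β chains of the expanded clones (8, 6 and 6 cells) and of a single clone chosen for its likeness to them are printed. Bases outside the V and J match, which include those of the D segment, are in capitals.
Clone of 8 cells, TRBJ1-4: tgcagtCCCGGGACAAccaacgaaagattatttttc
Clone of 6 cells, TRBJ1-1: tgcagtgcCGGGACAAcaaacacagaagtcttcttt
Clone of 6 cells, TRBJ1-1: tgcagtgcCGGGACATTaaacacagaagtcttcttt
Single clone, TRBJ1-1: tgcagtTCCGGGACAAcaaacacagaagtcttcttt
The run CGGGACA, chosen after the chains were seen, occurred in 6 of the 11 clones, 6 of 9 in mouse 1 and 0 of 2 in mouse 2. The 4 printed chains account for all of them. How much of the run is germline D was not determined, and GGGACA also stands in capitals in the TRBV5 TRBJ1-6 chain printed above. All 4 printed chains came from mouse 1, and the expanded clones had cells in both organs. The second of these chains was found in 9 clones (15 cells) of mouse 1 and in 1 clone of mouse 2. Cells with a further chain count as other clones here. Only clones of 6, 1 and 1 cells of mouse 1, all among the 11, paired it with TRAV13D-2 and TRAJ22. The other clones with this chain, that of mouse 2 included, were not among the 11.

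In all, 19 nucleotide TCRβ chains were found in both mice, of 2731 in mouse 1 and 993 in mouse 2. TRBV13-2 contributed 5, TRBV2 4 and TRBV5 3. They had a mean of 7.26 bases outside the V and J match, against 9.67 in chains of mouse 1 alone and 9.76 in those of mouse 2 alone. A chain of TRBV5 with TRBJ1-1 was carried by 5 clones of mouse 1 and 6 of mouse 2, the highest number in mouse 2, and is shown for its short junction.
TRBV5 TRBJ1-1: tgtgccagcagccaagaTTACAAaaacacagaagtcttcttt

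Unproductive contigs show rearrangements that cannot encode the cell's receptor, although the same segments can occur in its productive chain. There were 127 full-length unproductive TCRβ contigs in these cells, with a median of 3 or 4 UMIs. They were counted once per contig over all 4 libraries together, so cells of 1 clone can repeat a contig. The productive shares beside them are means of library shares, counted once per clone. TRBV1 was found in 23 of them (18.1%) and TRBV4 in 20 (15.7%, exact 95% interval 9.89% to 23.3%), against a mean of 8.63% and 4.38% of productive clones. TRBV12-1 (7.09% against 0.603%), TRBV23 (5.51% against 0.769%), TRBV17 (3.15% against 0.637%) and TRBV15 (7.87% against 2.00%) were also more frequent, so segments without a stop codon in the germline end were among them. TRBV2 and TRBV16 were at 0 of 127, which allows a share of up to 2.36%, while 6.84% and 4.52% of clones used them. Among the frequent segments, TRBV5 (0.787% against 10.7%) and TRBV3 (1.57% against 8.47%) were also less frequent. These segments were chosen after their values were seen, without a test. Productive contigs had a median of 5 UMIs in TRBV2, 14 in TRBV16, 9 in TRBV5 and 13.5 in TRBV3. The median was 18 in TRBV1, 15 in TRBV4 and from 12 (TRBV23) to 25 (TRBV17) in the other V segments named. Whether recovery of contigs plays a part was not tested. Among TRBJ, TRBJ1-2 made up 27.6% and TRBJ1-5 18.1%, against 6.84% and 3.06% of productive clones, and TRBJ1-1 1.57% against 12.4%. TRBJ1-2 and TRBJ1-5 occurred in all 4 libraries (15, 6, 12 and 2 contigs, and 6, 7, 8 and 2, of 37, 23, 50 and 17 in lung 1, lung 2, MLN 1 and MLN 2). In MLN 2 neither stood out, since TRBJ2-7 also had 2 contigs and TRBJ2-1 had 5.

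In the other run the V segment of each node cell was read from its gene expression, and each cell counted, since clones were not known and cells of 1 clone then count several times. Each gate was 1 library, so gate and library cannot be told apart. Over the 22 TRBV the mean shares of IL-4eGFP+ node cells had a Pearson's r of 0.987 with those of lung and MLN, as a description over segments. IL-4eGFP+ cells were compared with IL-4eGFP- cells of the same nodes and mice, with a call in 3869 and 3851 IL-4eGFP+ cells and 4170 and 3989 IL-4eGFP- cells of mouse 1 and mouse 2. TRBV16 was found in 3.23% and 3.69% of IL-4eGFP+ cells of mouse 1 and mouse 2 and in 4.94% and 4.81% of IL-4eGFP- cells. It was lower in IL-4eGFP+ cells in both mice, and in medLN as well as in MLN of each mouse. The log2 fold change was -0.50 ± 0.12 with an adjusted p of 0.00486 by edgeR's quasi-likelihood test with Benjamini-Hochberg adjustment. It was the only one called of 22 TCRβ segments, while 2.06% of all 97 V segments were called, and 7 of 22 had an unadjusted p under 0.05 (10.3% of all). Without overlap, 5 of the 22 were higher and 8 lower in IL-4eGFP+ cells, against 36.1% of all.

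DESeq2 called 0 segments in this comparison, with 2 at an unadjusted p under 0.05 (TRBV16, adjusted p = 0.730). The call of TRBV16 was also lost in medLN alone (0.417) and in MLN alone (0.151). TRBV30 was found in 10 and 5 IL-4eGFP+ cells and in 16 and 11 IL-4eGFP- cells (-0.76 ± 0.64). TRBV24, annotated as a pseudogene, was read in 0 and 1 IL-4eGFP+ cells and in 6 and 5 IL-4eGFP- cells of mouse 1 and mouse 2, too few for a fold. Neither passed the test. TRBV1 did not separate the gates, with 6.90% and 7.32% of IL-4eGFP+ and 7.10% and 6.62% of IL-4eGFP- cells. TRBV31 stood at 10.9% and 10.5% against 9.52% and 9.83%.

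**Figure D5:**
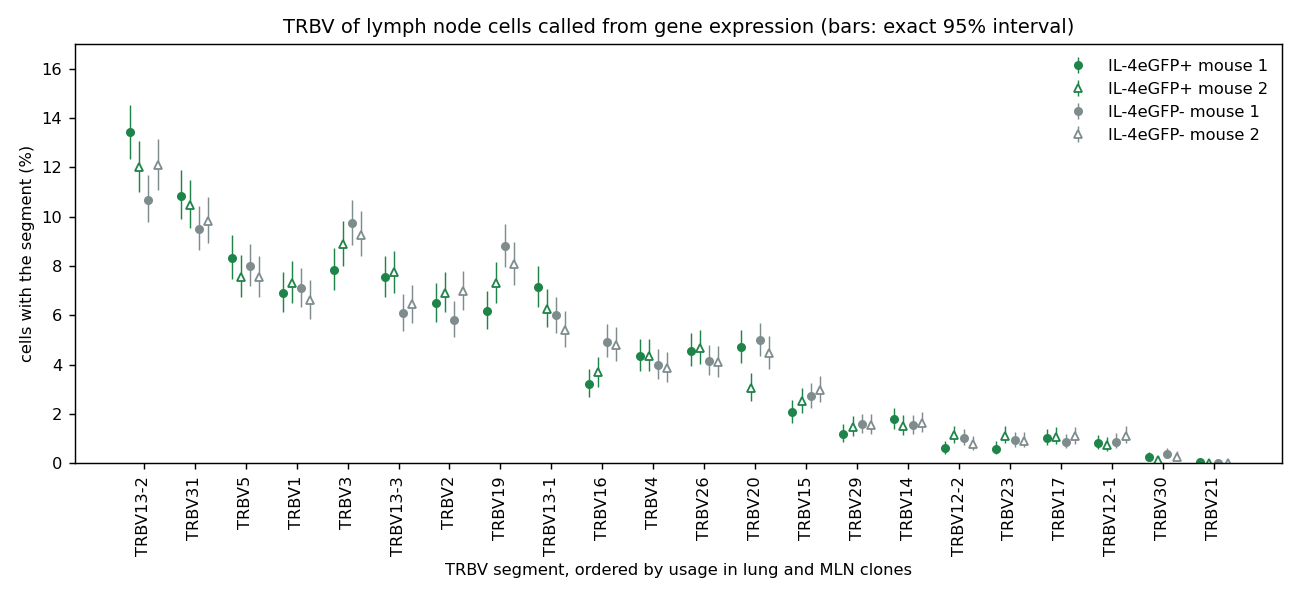
Percent of node cells with each TRBV segment, called from gene expression, in IL-4eGFP+ (green) and IL-4eGFP- (grey) cells of both mice, medLN and MLN together, with exact 95% intervals as bars. For TRBV16 both IL-4eGFP+ points (3.23% and 3.69%) lie below both IL-4eGFP- points (4.94% and 4.81%).

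Within IL-4eGFP+ cells, medLN was compared with MLN. Of 21 TCRβ segments 0 passed edgeR's quasi-likelihood test with Benjamini-Hochberg adjustment (1.1% of all 91 segments passed), 4 had an unadjusted p under 0.05 (8.79% of all) and DESeq2 passed 0 with 0 at an unadjusted p under 0.05. TRBV15 was found in 1.94% and 1.86% of medLN and 2.20% and 3.19% of MLN cells, lower in medLN in both mice, at -0.50 ± 0.24 (edgeR, adjusted p = 0.433). TRBV23 (0.50 ± 0.44) and TRBV30 (-0.59 ± 0.95) overlapped between the nodes.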

How the data were processed

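Single-cell 5′ gene expression and TCR libraries of sorted lung and MLN cells, and gene expression and hashtag libraries of node cells, were used as deposited. For the TCR, the authors assembled contigs with Cell Ranger 3.0.1 and deposited, for each contig, counts of UMIs with V, D, J and C calls and the CDR3. For gene expression and hashtags, the deposited values are counts of UMIs per barcode without normalization. The submitters' processing notes also name Cell Ranger 2.1.1 and 6.1.2 and the builds mm10 and GRCm38. Contigs with 1 UMI (110 of 5015) were kept.

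Barcodes were kept when they exceeded 500 UMIs, 500 genes and a novelty of 0.8, had less than 7% mitochondrial UMIs and held a productive contig of each chain. Doublets were not called, and cells with extra chains were left out as an alternative. Gene expression depth was 3671811 to 15913396 UMIs per library. Node cells were assigned to mouse and node by HTODemux of Seurat 5.3.0 and to the gate by the barcode suffix, and each took the V segment with the most UMIs.

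Numbers of clones (node cells: numbers of cells) per segment, for TCRα and TCRβ together, were tested with edgeR 4.0.16 (glmQLFit and glmQLFTest), scaled to the clones of each column, with 10 or more counts per segment, Benjamini-Hochberg adjustment over all segments and a threshold of 0.05. P-values rest on the spread between 2 samples per group, with the dispersion of each segment drawn towards that of all segments tested. Standard errors of edgeR's log2 fold changes are approximate. Each is the absolute change divided by the square root of the F statistic, not an output of the fit. With few clones they can be smaller than counting error, and the p-values do not follow from them. The main models did not include the mouse. The interaction test took expanded and single clones of each library as separate columns, although they come from the same mice. Samples with 1 number came from the same animal, so they are paired. The correlation of their deviations from group means was 0.12 (organ), 0.21 (expansion), 0.04 (invariant), -0.13 (gate) and 0.21 (node). DESeq2 1.42.0 and mouse as a block were among 80 alternative settings. Tests were run on simulated counts with planted log2 fold changes of 2 up or down and no pairing by mouse, so smaller changes were not covered. Shares have exact Clopper-Pearson 95% intervals (scipy 1.17.1), and a count of 0 allows 3 counts. To find bases outside the V and J germline, CDR3 sequences were matched to V ends and J starts of the annotation. D segments were not matched.

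Segments named in the text were the most and least used ones, those called, the largest changes of each comparison and a list (TRBV1, TRBV13-1, TRBV13-2, TRBV13-3, TRBV29). Members, lists and tests were chosen with earlier results of these data known.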

Additional observations from a re-analysis of the deposited data

How the results depend on the processing

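Of 73 counts of called TCRβ segments under alternatives, 21 moved by over 1.5 times. Between organs the count was 1 with the mouse as a replicate block and 0 to 2 when each library was left out (2 without lung 2). For expansion it was 1 among clones with an MLN cell. For invariant clones it was 0 with TMM factors, 30 or more counts, stricter contigs, the chains with the most UMIs, every barcode with both chains, no cells with extra chains, the amino acid CDR3, or TRAV11 and TRAJ18 left out of the table (chosen after seeing the data). With the TCRβ chain alone no TCRα segment was counted, so the adjustment ran over TCRβ segments only. There and with DESeq2 size factors within edgeR the count was 6, TRBV13-2 and TRBV29 among them, with TRBV3, TRBV5, TRBV19 and TRBV31 lower. Between gates it was 2 (TRBV16 and TRBV19) with TMM factors, DESeq2 size factors, 2 or more UMIs, and each mouse and node with the sample as a replicate block, and 0 with DESeq2, sums of UMIs, medLN or MLN alone. Mouse as a block changed no other count of TCRβ calls than that between organs. The causes were not tested.

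Of 419 values of named segments 379 stayed the same and 12 reversed. A tested value stayed the same if it kept its direction and side of the threshold. A value left without a test did so if it kept its direction and lay within a standard error of the main value. Leaving out single libraries gave -0.039 to 2.48 for TRBV12-1, -1.04 to 2.16 for TRBV17 and -1.30 to 0.015 for TRBV26 (organ), -0.13 to 0.51 for TRBV15 and -0.78 to 0.27 for TRBV26 (expansion), and -1.88 to 0.41 for TRBJ2-2, -0.66 to 0.15 for TRBV13-1 and -0.13 to 1.60 for TRBV13-3 (invariant), where leaving out a mouse leaves no test. With 3 or more cells TRBJ2-2 stood at -0.12 and TRBV15 at -0.0089 by expansion, and TRBV26 at 0.98 in its difference between organs. TRBV1 stood at -0.38 among invariant clones with stricter contigs. Of 35 mean shares under alternatives 1 moved, TRBV1 to 7.86% with the TCRβ chain alone. Depth limits the rare segments: in lung 2, a count of 0 of 375 clones allows 0.80%.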
